A study of Mus musculus with 20 samples.

Results

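The 32 genes described here encode the steps that carry glucose to pyruvate and lactate and the gate that passes pyruvate into mitochondria: glucose transporters, the glycolytic enzymes, lactate dehydrogenases, monocarboxylate transporters, the mitochondrial pyruvate carrier, pyruvate dehydrogenase with its inhibitory kinases, a phosphoglucomutase and the transcription factor gene Hif1a. They were chosen by name and not by their levels from 25246 genes in the count tables, but with earlier results of these data known. The study had reported lower Ldha and Pkm in CD122+ cells after deletion of C-myc. Of the 32, 31 were found in the count tables, and Hk3 was not analysed here. The cells were CD4-CD8-TCRb+ thymocytes, the fraction that holds precursors of intraepithelial T cells, sorted singly into 96 wells per library and read by CEL-Seq2, which counts the 3′ ends of messenger RNAs with molecular tags. They were sorted by CD122, the beta chain of the interleukin 2 and interleukin 15 receptors, and by a ZsGreen reporter of T-bet, which gave 4 populations: CD122-T-bet-, called CD122- cells here; CD122+T-bet-, called CD122+ cells; CD122+T-bet int, called int cells; and CD122+T-bet high, called high cells. The labels disagree on NK1.1: the design text names the cells NK1.1+, the study's methods NK1.1-.

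The design text speaks of 1 mouse for each genotype and the study's text of mice, and the labels number no animals, so each genotype was taken as 1 mouse here. The TBGR mouse was 4 weeks old and gave 8 libraries, 2 for each population. The TBGR C-myc fl/fl mouse, which carries floxed C-myc alleles, and the TBGR C-myc D/DCd4 mouse, in which Cre driven by Cd4 deletes them, were 2 weeks old and gave 8 and 4 libraries. All 3 carried the Tbx21-ZsGreen transgene on a C57BL/6 background, and the thymocytes of all 3 had been depleted with antibodies to CD4 and CD8 before sorting. In the C-myc fl/fl mouse every library held cells of 2 populations, either both T-bet- populations or the int and high populations; C-myc D/DCd4 cells were given for the T-bet- populations alone. Cd4-Cre acts in cells that have passed through Cd4 expression, so the design concerns cells with that history. Age, mouse and library layout differed between TBGR and the younger mice and cannot be told apart from genotype there, and between C-myc fl/fl and C-myc D/DCd4 the mouse and the layout cannot be told apart from the deletion. With 1 mouse per genotype no test was possible, no p-value is given, and libraries of 1 mouse measure technical spread alone.

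Glycolysis splits a hexose into a pair of triose phosphates and oxidises them to pyruvate, with ATP made by phosphoglycerate kinase and pyruvate kinase. Lactate dehydrogenase then returns pyruvate to lactate, which restores the NAD+ that glyceraldehyde 3-phosphate dehydrogenase needs, while the pyruvate carrier and pyruvate dehydrogenase send it to the citric acid cycle. Resting thymocytes run this pathway at a low rate, proliferating lymphocytes at a high one, and c-Myc and Hif1a are both known to activate many of its genes through E-box and hypoxia response elements, whose cores are often written CACGTG and ACGTG.

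Promoters were examined because the study deleted C-myc and because the letters of an E-box can be searched for directly. In RefSeq promoters of the GRCm38.p6 build (250 bases before to 50 after each start, 300 in all), 29 of the members had an entry. The sequence CACGTG, which reads alike on both strands, stood in the windows of 5 members, 17.2%, against 8.09% of 27025 genes and 12.5% of 5480 genes measured in the comparison of CD122+ cells between the C-myc genotypes. Those 5 were Ldha, Slc16a1, Hif1a, Pfkm and Pfkfb3. The shorter ACGTG, searched on both strands and held within every CACGTG, stood in 16 of the 29, 55.2%, against 21.8% of all genes and 30.8% of the measured ones. Per window rather than per gene, 7.15% of 32851 windows held CACGTG and 19.6% held ACGTG. A gene with several windows counted if any of them matched. The share per window is not given for the members, so a difference in windows per gene is not removed. Of the 8 genes called lower in C-myc D/DCd4 CD122+ cells, given further on, 1 held CACGTG, which was Ldha, and 5 held ACGTG. These are 12.5% and 62.5%, against 12.5% and 30.8% of the measured genes. A match is a string of letters and not a measured binding site. The windows of Ldha (chr7:46845554-46845853, plus strand; the one of its 2 listed windows with a match), Slc16a1 (chr3:104638414-104638713, plus strand) and Hif1a (chr12:73907617-73907916, plus strand) are printed as those that hold CACGTG, and that of Pgam1 (chr19:41911621-41911920, plus strand), the member with the largest of the called decreases in those cells, as one that holds ACGTG alone. They read 5′ to 3′ on the strand of the gene, and capitals mark ACGTG on either strand, so that CACGTG appears as 6 capitals.
Ldha: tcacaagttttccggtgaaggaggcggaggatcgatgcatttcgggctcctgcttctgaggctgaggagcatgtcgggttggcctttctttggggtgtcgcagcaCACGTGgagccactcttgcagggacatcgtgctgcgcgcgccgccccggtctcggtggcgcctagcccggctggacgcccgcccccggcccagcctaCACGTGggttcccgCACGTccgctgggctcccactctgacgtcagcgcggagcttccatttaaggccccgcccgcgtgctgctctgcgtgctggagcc
Slc16a1: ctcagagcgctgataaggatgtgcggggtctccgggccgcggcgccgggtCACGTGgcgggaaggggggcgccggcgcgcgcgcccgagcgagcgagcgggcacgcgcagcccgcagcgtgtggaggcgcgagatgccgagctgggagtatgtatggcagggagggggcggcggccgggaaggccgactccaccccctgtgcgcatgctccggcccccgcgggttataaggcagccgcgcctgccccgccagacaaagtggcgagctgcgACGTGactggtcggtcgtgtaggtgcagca
Hif1a: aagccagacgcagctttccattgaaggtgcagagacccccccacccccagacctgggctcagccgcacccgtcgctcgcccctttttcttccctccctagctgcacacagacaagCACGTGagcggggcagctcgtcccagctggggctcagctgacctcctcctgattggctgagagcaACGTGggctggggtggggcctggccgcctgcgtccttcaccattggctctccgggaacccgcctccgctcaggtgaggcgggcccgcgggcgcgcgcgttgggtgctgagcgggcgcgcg
Pgam1: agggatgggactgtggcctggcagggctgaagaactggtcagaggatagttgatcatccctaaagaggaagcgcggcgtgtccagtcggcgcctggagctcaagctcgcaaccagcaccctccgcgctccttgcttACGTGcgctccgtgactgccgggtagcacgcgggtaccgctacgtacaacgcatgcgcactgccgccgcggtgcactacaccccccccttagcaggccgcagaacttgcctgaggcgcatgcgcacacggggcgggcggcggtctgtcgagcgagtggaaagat
In Ldha the string began 145 and 48 bases before the start, in Slc16a1 200 bases, in Hif1a 135 bases, and in Pfkm and Pfkfb3 136 and 53 bases before it. For Pfkm and Pfkfb3 the start was that of the windows chr15:98092339-98092638 and chr2:11502041-11502340. Other listed windows of these genes held no CACGTG.

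Of 1920 sorted cells, 1413 had at least 2000 estimated transcripts and a population label, and library medians ran from 3298 to 7809.5 transcripts. Levels are given as CPM, a gene's share of all transcripts in parts of 1e+06, with exact 95% Poisson intervals that cover counting error only; 3 transcripts, the level that a count of 0 in a library still allows, equalled 3.87 to 31.8 CPM, and values under that rest on 1 or 2 transcripts. A gene was measured in a comparison with 20 or more transcripts summed over both groups, and was called where the CPM differed at least 1.5-fold and the libraries of the groups did not overlap, or, within shared C-myc fl/fl libraries, where all 4 gave the same sign. The log2 ratio of CPM was taken after adding 0.5 to each sum. Il2rb, which encodes CD122, was called higher in CD122+ than in CD122- cells of all 3 mice, and Tbx21, which encodes T-bet, higher in high than in int cells of both mice that had them. Cd3e, a T cell receptor subunit, was detected in every library. The marker list of double positive thymocytes, the CD4+CD8+ majority of the thymus, was highest in CD122- cells within each genotype, at 671 to 789.7 CPM in TBGR, 251 to 445 CPM in C-myc fl/fl and 611 to 853 CPM in C-myc D/DCd4 libraries, against 10.6 to 253 CPM in all other libraries. Its 8 genes include Rag1 and Rag2, of which at least Rag2 was at 0 in the CD122+ cells of every genotype. The gamma delta T cell list reached 899.9 CPM in a C-myc D/DCd4 CD122- library, the B cell list 207 CPM in a C-myc D/DCd4 CD122+ library and the erythroid list 148 CPM in a TBGR int library. The part of these cells in the results was not tested.

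Summed over the 31 members, the level was 3981 CPM (3857 to 4108) in TBGR CD122- cells, 4593 CPM (4484 to 4704) in CD122+ cells, 4458 CPM (4344 to 4575) in int cells and 3392 CPM (3258 to 3531) in high cells. The TBGR libraries gave 4521 and 3455 CPM in CD122-, 5027 and 4108 CPM in CD122+, 4334 and 4588 CPM in int and 3679 and 2814 CPM in high cells, so that the first 3 populations overlapped and the 2 high libraries lay under every int library. In C-myc fl/fl cells the sums were 3024 CPM (2906 to 3147), 5055 CPM (4896 to 5218), 4957 CPM (4808 to 5109) and 3433 CPM (3297 to 3574). Their libraries gave 4169.6, 2130.2, 3425 and 2207 CPM for CD122- and 5729.8, 4898, 5454 and 2938 CPM for CD122+ cells of the same 4 libraries, with the CD122+ value higher in each. They gave 5156, 4912, 5612 and 4082 CPM for int and 4187, 3117, 3389.6 and 2778 CPM for high cells, with the high value lower in each. Library 4 of the T-bet- cells held 22 passing CD122+ cells and had the lowest CD122+ level of the 4. In C-myc D/DCd4 cells the sums were 2638 CPM (2524 to 2755) in CD122- and 2471 CPM (2358 to 2589) in CD122+ cells. Their libraries gave 2325 and 2838 CPM in the former and 2217 and 2671 CPM in the latter, so that the 2 populations overlapped. Of the 31 members, Aldoc and Eno2 reached 20 transcripts in none of the 8 comparisons that follow, and Hk1, Hk2 and Slc2a1 were measured in some or all of them without a call.

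**Figure D1:**
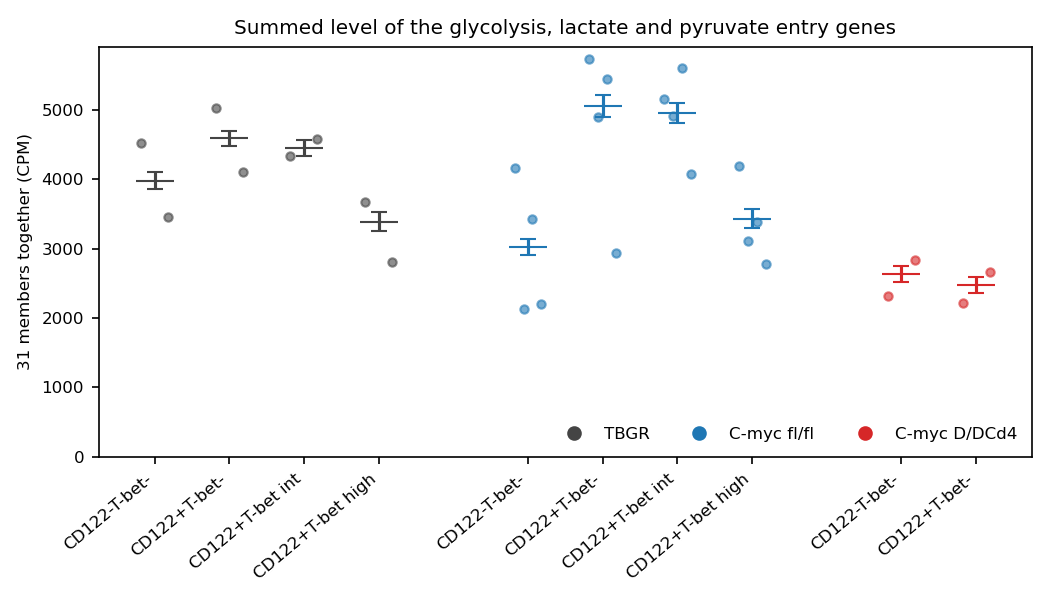
Summed CPM of the 31 members for each genotype and population; horizontal lines show the pooled value with its 95% Poisson interval and points the single libraries. C-myc D/DCd4 CD122+ libraries, at 2217 and 2671 CPM, lie under all 4 C-myc fl/fl libraries of that population.

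From CD122- to CD122+ cells of the TBGR mouse, 7 of 28 measured members were called higher and 2 lower. Among those higher were the triose phosphate isomerase gene Tpi1, the phosphoglycerate mutase gene Pgam1 and the enolase gene Eno3, while the lactate dehydrogenase gene Ldhb fell. Called higher were 25% of the members against 26.7% of 9262 measured genes, and called lower 7.14% against 7.67%, so neither share stood apart from the background. The members had a median log2 ratio of 0.18 and all genes 0.26. Taken relative to that shift of all genes, 53.5% instead of 77.7% of all calls were in the higher direction. Among the 28 members 6 were then higher, all but Pfkp of the 7, and 5 lower, with Slc2a3, Hk1 and Eno1 added. Of all measured genes 16.3% were then called higher and 14.2% lower. Cycling genes were higher at the same time: 28 of the 29 genes of the cycling list were called higher.

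Among the hexose phosphate steps, Pfkp, a phosphofructokinase isoform, was at 91 and 46.3 CPM in the CD122- libraries and at 119 and 96.6 CPM in the CD122+ libraries, a log2 ratio of 0.66 (0.24 to 1.10), 0.39 relative to all genes. Tpi1, which interconverts the triose phosphates, was at 57.9 and 38.3 CPM and then at 181 and 156 CPM, 3.49-fold higher, with a log2 ratio of 1.80 (1.36 to 2.30), 1.54 relative to all genes. The libraries of both genes lay apart, as a call requires. Pgam1, which moves the phosphate of phosphoglycerate, was at 134 and 131 CPM and at 294 and 205 CPM, with a ratio of 0.92 (0.63 to 1.23), 0.66 relative to all genes. Eno3, the enolase best known from muscle, rose from 64.1 and 62.4 CPM to 116 and 128 CPM, a ratio of 0.94 (0.52 to 1.39), 0.67 relative to all genes. At pyruvate entry the kinases moved apart. Pdk3, which inhibits pyruvate dehydrogenase, went from 22.7 and 18.1 CPM to 59.3 and 27.4 CPM (1.09, interval 0.38 to 1.92, 0.83 relative to all genes), and its relative Pdk1 from 43.4 and 40.3 CPM to 16.8 and 11.5 CPM (-1.53, interval -2.38 to -0.76, -1.80 relative to all genes).

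Of the lactate genes, Ldhb fell from 145 and 101 CPM to 52.9 and 89.4 CPM, a log2 ratio of -0.80 (-1.20 to -0.41), -1.07 relative to all genes. Ldha, the other lactate dehydrogenase, was at 637 and 393 CPM against 747 and 539 CPM, and these libraries overlapped. Slc16a3, a lactate exporter, rose from 12.4 and 0 CPM to 27.1 and 15.9 CPM (1.74, interval 0.55 to 3.38, 1.47 relative to all genes), on 6 and 32 transcripts. Pgm2, a phosphoglucomutase name that older annotation applied to a different gene, so that its identity is uncertain here, rose from 10.3 and 4.03 CPM to 31 and 21.6 CPM (1.81, interval 0.72 to 3.30, 1.55 relative to all genes). Single libraries decided some of these calls. Without CD122+ library 1, Pfkp was at 0.50, Ldhb at -0.45 and Pdk3 at 0.43, all under 1.5-fold, and Slc16a3 had under 20 transcripts. Without CD122- library 1, Ldhb was at -0.53, also under 1.5-fold, Pfkp was at 1.20, and Slc16a3 had no transcript left in CD122- cells; without CD122- library 2, Pfkp was at 0.24, under 1.5-fold, and Slc16a3 at 0.72. Glucose entry and the regulator had no called member. Slc2a3, a glucose transporter, was at 43.4 and 34.2 CPM against 28.4 and 24.5 CPM, and Hif1a at 66.1 and 34.2 CPM against 81.3 and 50.5 CPM.

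From CD122+ to int cells of the TBGR mouse, few members differed: 1 of 29 was called higher and 4 lower, against 9.9% and 15.1% of 9461 genes. The median log2 ratio of the members was 0.05 and that of all genes -0.02, and 17 of the 29 cycling genes were called higher. Pgk1, the first ATP-forming enzyme of the pathway, went from 112 and 57.7 CPM to 156 and 152 CPM, a log2 ratio of 0.83 (0.50 to 1.17). Ldhb fell again, from 52.9 and 89.4 CPM to 43.9 and 25.3 CPM (-1.0, interval -1.55 to -0.49). Eno3 fell from 116 and 128 CPM to 86.4 and 34.8 CPM (-0.99, interval -1.40 to -0.61). The 2 sparsest of the 5 were Pfkm, the muscle phosphofructokinase, with 16 and 5 transcripts and a ratio of -1.40 (-3.30 to 0.02), and Slc16a3, with 32 and 3 transcripts and a ratio of -3.03 (-5.58 to -1.55). Without cycling cells Pfkm was left with 3 transcripts in each group, too few for a direction. Leaving out single libraries moved each of the 5. Pgk1 was at 0.45, under 1.5-fold, without CD122+ library 2 and at 1.40 without CD122+ library 1, and Eno3 at -0.49, under 1.5-fold, without int library 2 and at -1.78 without int library 1. Ldhb was at -0.60 without CD122+ library 2 and -0.66 without int library 2. Pfkm had under 20 transcripts without any one of the 4 libraries, and Slc16a3 without CD122+ library 1, while without int library 1 no Slc16a3 transcript was left in int cells. Glucose entry, the triose phosphates and pyruvate entry held no called member, and their members with most transcripts did not differ by 1.5-fold: Gapdh, at 1015 and 806 CPM against 897 and 931 CPM, Slc2a3, at 28.4 and 24.5 CPM against 27.3 and 30 CPM, and Pdha1, a subunit of pyruvate dehydrogenase, at 161 and 136 CPM against 130.3 and 145 CPM.

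From int to high cells of the TBGR mouse, members along most of the pathway were lower: 12 of 26 measured members were called lower and 2 higher. The 12 run from a phosphofructokinase through the triose phosphates, phosphoglycerate and enolase steps to both lactate dehydrogenases and 3 genes of pyruvate entry. That is 46.2% of the members against 22.3% of 8564 genes called lower, and 7.69% against 14.1% called higher. The median log2 ratio was -0.50 for the members and -0.09 for all genes. In the same comparison 28 of the 29 cycling genes were called lower. Without cycling cells 6 members were called, of which Pfkp, Ldhb, Pdk3, Pdha1 and Mpc1 were among the 14, and the median ratio was -0.30. The median of all genes was then -0.02. Relative to all genes, 11 members were called lower and 3 higher, against 18.9% and 16.6% of all measured genes. Depth differed too, with a median of 6348 transcripts per int cell and 4309 per high cell. After thinning each cell to 2000 transcripts, only Pfkp, Ldhb, Pdk1, Pdha1 and Mpc1 of the 14 kept their calls.

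Gapdh, the dehydrogenase of the triose phosphate step, went from 897 and 931 CPM in the int libraries to 624 and 449.8 CPM in the high libraries, a log2 ratio of -0.69 (-0.86 to -0.53). Tpi1 fell from 161 and 215 CPM to 127 and 90 CPM (-0.70, interval -1.09 to -0.34), but was at 0.12 (-0.40 to 0.65) without cycling cells. Ldha fell from 712 and 679.9 CPM to 435 and 389.8 CPM (-0.73, interval -0.92 to -0.54) and Ldhb from 43.9 and 25.3 CPM to 10.6 and 8.57 CPM (-1.73, interval -3.20 to -0.65). Other enzymes of lower glycolysis were called lower too. Pgk1 had a ratio of -0.78 (-1.22 to -0.37), Pgam1 of -0.92 (-1.26 to -0.61) and Eno3 of -1.68 (-2.70 to -0.87). Bpgm, which makes 2,3-bisphosphoglycerate, had one of -1.57 (-3.70 to -0.17) on 24 and 4 transcripts. At pyruvate entry Pdk3 (-1.14, interval -2.09 to -0.34), Pdha1 (-0.78, interval -1.25 to -0.35) and the carrier gene Mpc1 (-1.31, interval -2.14 to -0.61) were lower, and Pdk1 was higher (0.93, interval 0.11 to 1.75). Among the phosphofructokinases Pfkp was lower (-0.60, interval -1.05 to -0.18) and Pfkl, the liver isoform, higher (1.39, interval 0.48 to 2.36), the latter on 18 and 26 transcripts. Leaving out single libraries brought 5 of these calls under 1.5-fold: Pfkp at -0.33 without high library 2 and -0.53 without int library 2, Tpi1 at -0.55 and -0.48 without the same 2, Gapdh at -0.55 without high library 2, Pdk1 at 0.53 without int library 2 and Pdha1 at -0.46 without high library 1. Bpgm had under 20 transcripts without either int library, none left in high cells without high library 1, and a ratio of -0.99 without high library 2. Larger moves that kept the call were Pfkp at -1.33 without high library 1, and Eno3 at -0.89 and Pdk1 at 1.43 without int library 1. Aldoa, the aldolase gene, was not called: it was at 215 and 281 CPM in int and 441 and 231 CPM in high libraries, which overlapped. Pkm, the pyruvate kinase gene, was at 621 and 697 CPM against 607 and 407 CPM, less than 1.5-fold apart. Glucose entry held no called member, with Slc2a3 at 27.3 and 30 CPM against 67.9 and 30 CPM, and neither did Hif1a, at 72.7 and 63.2 CPM against 44.6 and 68.5 CPM.

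**Figure D2:**
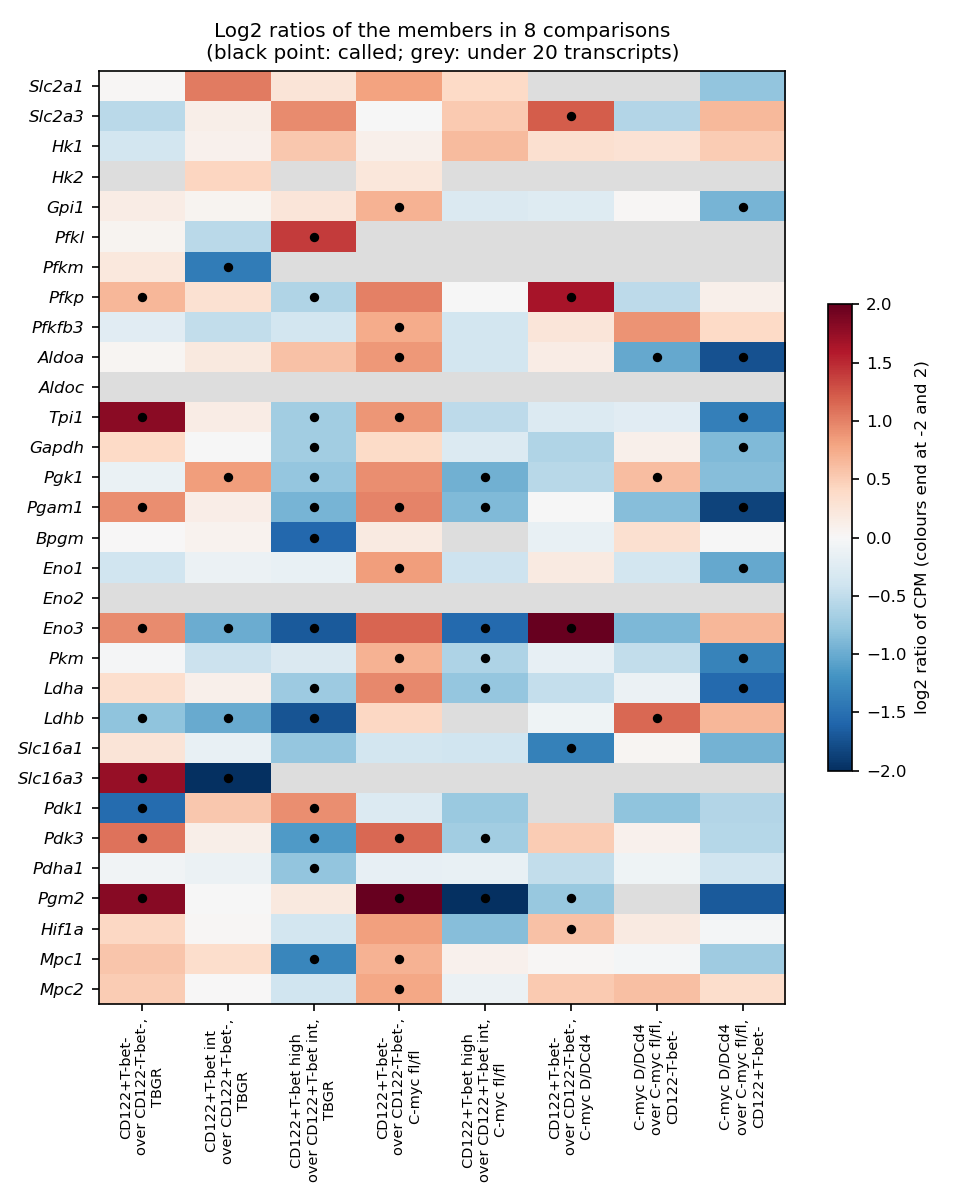
Log2 ratio of CPM of every member (rows, by step of the pathway) in the 8 comparisons (columns); black points mark called members and grey cells members with under 20 transcripts in both groups together. In TBGR high over int cells 12 of the 26 measured members are called lower, and in CD122+ cells of C-myc D/DCd4 over C-myc fl/fl 8 of 25.

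Within enzymes that have several gene copies, the mix of isoforms was followed along the sorted populations. Ldhb, whose product favours the use of lactate, made up 19.3% (16.2 to 22.6, 120 of 623 transcripts) of Ldha and Ldhb transcripts in TBGR CD122- cells, 9.75% (8.03 to 11.7, 103 of 1056 transcripts) in CD122+ cells, 4.76% (3.49 to 6.32, 45 of 945 transcripts) in int cells and 2.31% (0.934 to 4.7, 7 of 303 transcripts) in high cells, with exact binomial intervals. By library these shares were 18.5% and 20.4%, 6.61% and 14.2%, 5.81% and 3.59% and 2.38% and 2.15%, and no pair of neighbouring populations overlapped. In C-myc fl/fl cells the share was 4.32% (2.78 to 6.35, 24 of 556 transcripts), 3.01% (2.04 to 4.27, 30 of 996 transcripts), 0.902% (0.413 to 1.7, 9 of 998 transcripts) and 0.211% (0.00533 to 1.17, 1 of 475 transcripts), where each pair of neighbouring populations overlapped across libraries. Within the shared libraries the share was lower in high than in int cells of all 4, and lower in CD122+ than in CD122- cells of 3, with equal shares in library 3. C-myc D/DCd4 cells had shares of 9.92% (7.48 to 12.8, 51 of 514 transcripts) and 12.6% (9.34 to 16.5, 45 of 357 transcripts), with libraries at 10.1% and 9.85% and 15% and 11.5%. In both T-bet- populations these lay above every C-myc fl/fl library, the highest of which was 5.71%.

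Eno3 made up 15.8% (12.3 to 19.8, 62 of 393 transcripts) of the transcripts of Eno1, Eno2 and Eno3 in TBGR CD122- cells, 32.5% (28.6 to 36.6, 179 of 551 transcripts) in CD122+ cells, 21.1% (17.1 to 25.6, 79 of 374 transcripts) in int and 8.23% (4.45 to 13.7, 13 of 158 transcripts) in high cells. In C-myc fl/fl cells it was 65.8% (53.7 to 76.5, 48 of 73 transcripts), 71.6% (63.4 to 78.9, 101 of 141 transcripts), 51.4% (41.5 to 61.2, 55 of 107 transcripts) and 31.9% (19.1 to 47.1, 15 of 47 transcripts), and in C-myc D/DCd4 cells 55.8% (39.9 to 70.9, 24 of 43 transcripts) and 88.9% (83.2 to 93.2, 152 of 171 transcripts). The shares of the younger mice stood on few Eno1 transcripts: Eno1, the enolase of most tissues, ran from 137 to 378 CPM in TBGR libraries and from 9.7 to 94.4 CPM in those of the 2-week mice, a gap that age, mouse and layout share. Pdk3 took 32.8% (21.3 to 46, 20 of 61 transcripts) of Pdk1 and Pdk3 transcripts in TBGR CD122- cells, 75.6% (65.1 to 84.2, 65 of 86 transcripts) in CD122+ cells, 69.7% (59 to 79, 62 of 89 transcripts) in int and 34.9% (21 to 50.9, 15 of 43 transcripts) in high cells, with all CD122+ and int libraries at 63.3% or more and all other TBGR libraries at 37.0% or less. In C-myc fl/fl cells the Pdk3 share was 51.4% (34 to 68.6, 18 of 35 transcripts), 74.5% (60.4 to 85.7, 38 of 51 transcripts), 60.3% (47.2 to 72.4, 38 of 63 transcripts) and 61.3% (42.2 to 78.2, 19 of 31 transcripts) from CD122- to high cells, with overlapping libraries and without the low share that TBGR high cells had. In C-myc D/DCd4 cells it was 66.7% (46 to 83.5, 18 of 27 transcripts) and 75% (56.6 to 88.5, 24 of 32 transcripts), also with overlapping libraries. Hk2, the inducible hexokinase, stood on 2 to 12 transcripts per population. Its share of Hk1 and Hk2 was 2.6% (0.316 to 9.07, 2 of 77 transcripts), 10.3% (5.06 to 18.1, 10 of 97 transcripts), 12.9% (6.85 to 21.5, 12 of 93 transcripts) and 5.88% (1.63 to 14.4, 4 of 68 transcripts) in TBGR cells. It was 27.8% (14.2 to 45.2, 10 of 36 transcripts), 29.7% (15.9 to 47, 11 of 37 transcripts), 16.7% (6.97 to 31.4, 7 of 42 transcripts) and 4.26% (0.52 to 14.5, 2 of 47 transcripts) in C-myc fl/fl cells, where single libraries ran from 0 to 75%, and 9.09% (1.92 to 24.3, 3 of 33 transcripts) and 5.41% (0.661 to 18.2, 2 of 37 transcripts) in C-myc D/DCd4 cells.

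**Figure D3:**
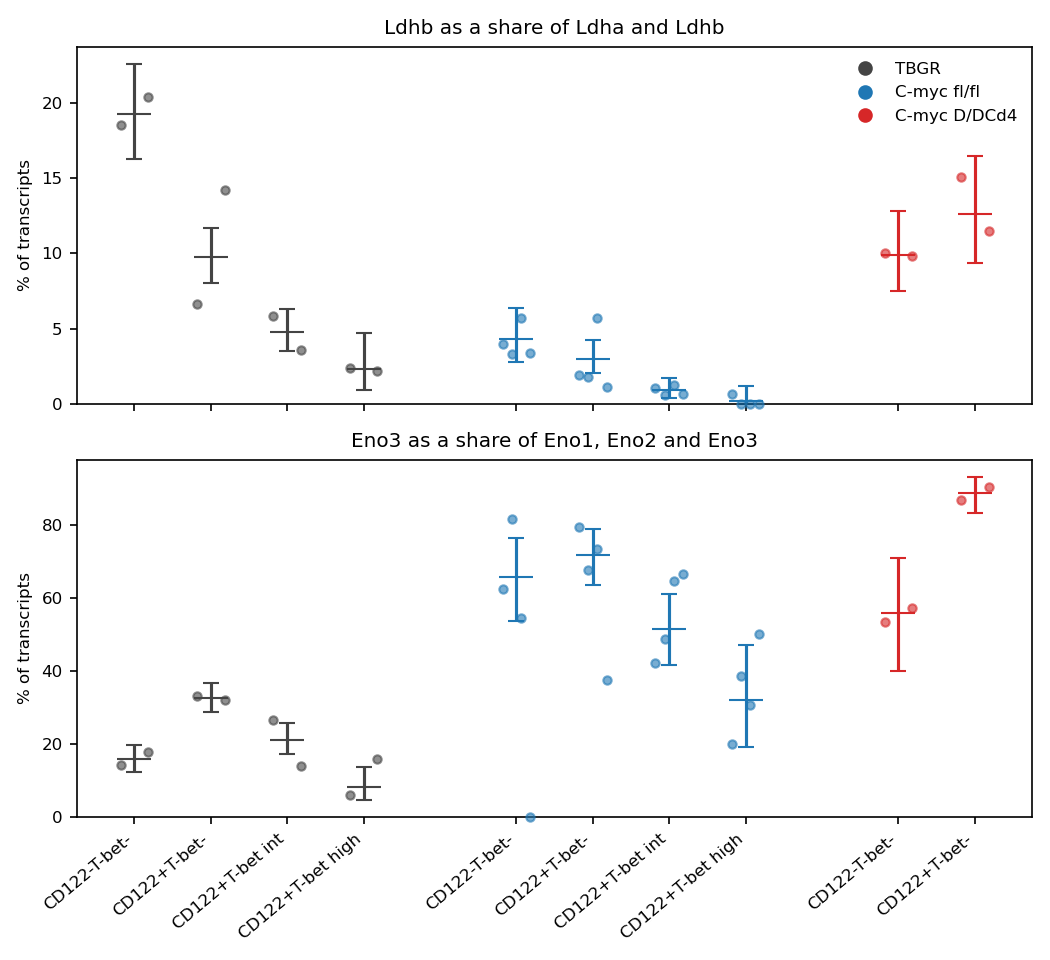
Share of Ldhb in Ldha and Ldhb transcripts (top) and of Eno3 in the transcripts of Eno1, Eno2 and Eno3 (bottom), in percent, by genotype and population; horizontal lines are pooled values with exact 95% binomial intervals and points are libraries. The Ldhb share goes from 19.3% to 2.31% over the TBGR populations, and is 9.92% and 12.6% in the C-myc D/DCd4 cells.

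In the C-myc fl/fl mouse, CD122+ cells had higher levels of members at every step from hexose phosphates to pyruvate entry than CD122- cells of the same libraries: 12 of 26 measured members were called higher and 0 lower, all 12 with the same sign in each of the 4 libraries, as a call requires. That is 46.2% of the members against 23.7% of 6790 genes called higher, and 0% against 3.9% called lower. The median log2 ratio was 0.76 for the members and 0.48 for all genes. Relative to that shift of all genes, which took the higher share of all calls from 85.9% to 43.7%, only Pdk3 and Pgm2 of the 12 stayed higher and Pdha1 became lower. Of all measured genes 7.16% were then called higher and 9.23% lower. Ldha, at 941, 405, 734 and 524 CPM in CD122- and 1392, 1242, 1339.8 and 934 CPM in CD122+ cells of libraries 1 to 4, had within-library log2 ratios of 0.56, 1.61, 0.87 and 0.83 and a pooled ratio of 0.96 (0.80 to 1.11), 0.47 relative to all genes. Pgam1 was at 320.0, 121, 316 and 171 CPM against 581, 459, 460.1 and 255 CPM, a ratio of 0.99 (0.73 to 1.25), 0.51 relative to all genes. Tpi1 was at 238, 51.2, 116 and 116 CPM against 267, 236, 257 and 138 CPM, a ratio of 0.88 (0.53 to 1.24), 0.40 relative to all genes. Each of these 3 was higher in CD122+ cells of all 4 libraries, as a call requires.

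Smaller ratios were found for Pkm (0.69, interval 0.52 to 0.87), for Gpi1 of glucose phosphate isomerase (0.70, interval 0.34 to 1.06), for Aldoa (0.86, interval 0.60 to 1.14) and for Pfkfb3, which makes the activator of phosphofructokinase (0.75, interval -0.45 to 2.08). Eno1 had a ratio of 0.83 (0.05 to 1.68), on 22 and 37 transcripts. The carrier genes Mpc1 (0.69, interval -0.10 to 1.53) and Mpc2 (0.77, interval -0.11 to 1.72) were higher together, with Pdk3 at 1.15 (0.33 to 2.07). Pgm2, of uncertain identity, had a ratio of 2.31 (1.01 to 4.16) on 5 and 25 transcripts. Without 1 library, 5 of the 12 came under 1.5-fold, Gpi1 at 0.58, Pfkfb3 at 0.57 and Mpc2 at 0.51 without library 4, Pkm at 0.54 without library 2 and Mpc1 at 0.28 without library 3. Without library 3 Mpc2 was at 1.24 and Pfkfb3 had under 20 transcripts, as had Pgm2 without library 1. Of the cycling genes, the 6 Mcm helicase genes were called higher and none of the other 23. Glucose entry and Hif1a held no called member: Slc2a3 was at 24.2, 14, 17.8 and 6.1 CPM against 27.7, 13.4, 13.5 and 0 CPM, and Hif1a at 38.8, 32.6, 53.4 and 12.2 CPM against 32.3, 62.3, 108 and 31.8 CPM.

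From int to high cells of the C-myc fl/fl libraries, 0 of 23 members were called higher and 7 lower, against 4.7% and 10.6% of 6908 genes; by share the members' 7 are 30.4%. The median log2 ratio was -0.40 for the members and -0.18 for all genes. Relative to all genes the higher share of all calls went from 30.7% to 60.3%, and Pgk1, Pgam1, Eno3, Ldha and Pgm2 stayed lower among the members. Of all measured genes 8.25% were then called higher and 5.43% lower. Ldha was at 1188, 1102, 1456 and 943 CPM in int and 756, 642, 671 and 617 CPM in high cells, a ratio of -0.78 (-0.94 to -0.62), -0.59 relative to all genes, lower in high cells of all 4 libraries, as its call requires. Pgam1 had 437, 412, 423 and 329 CPM against 312, 175, 198 and 167 CPM (-0.89, interval -1.18 to -0.61, -0.70 relative to all genes). Pgk1 had a ratio of -0.96 (-1.59 to -0.38), Eno3 of -1.56 (-2.52 to -0.75) and Pkm of -0.62 (-0.80 to -0.44). Pdk3 had one of -0.70 (-1.59 to 0.11), with 3 and 7 transcripts left without cycling cells, and Pgm2 one of -2.28 (-4.40 to -0.89). Pkm came under 1.5-fold without library 2 (-0.54) or 3 (-0.58), and Pdk3 without library 1 (-0.50). Pgk1 was at -0.63 without library 3 and Pgm2 at -3.47 without library 1, which left 1 Pgm2 transcript in high cells, and both were still called. Without cycling cells, Pkm alone of the 7 kept its call. Of the cycling list 3 genes were called higher and 9 lower. At the steps without a call, Aldoa was at 480.4, 415, 554 and 494 CPM against 539, 301, 336 and 250.3 CPM, Gpi1 at 343, 285, 199 and 196 CPM against 297, 200.5, 209 and 142 CPM, and Slc2a3 at 17.2, 23.4, 37.3 and 25.3 CPM against 35.3, 45.1, 38.5 and 16.7 CPM. Hif1a had a ratio of -0.85 (-1.56 to -0.20) without the same sign in all 4 libraries.

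For the deletion of C-myc the targeted gene was looked at first. Myc stood at 63, 14, 62.3 and 24.4 CPM in the C-myc fl/fl libraries of CD122- cells and at 73.8, 125, 135 and 10.6 CPM in those of CD122+ cells. In C-myc D/DCd4 it stood at 16.7 and 30 CPM and at 44.5 and 9.96 CPM. The libraries of the 2 genotypes overlapped in both populations. The sources used here do not say which part of the gene is removed, so a count of 3′ ends is an uncertain check of the labels.

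In CD122+ cells, the C-myc D/DCd4 mouse had lower levels than the C-myc fl/fl mouse of 8 enzymes that span the pathway from glucose phosphate isomerase to lactate dehydrogenase, and 0 members were called higher. The 8 of 25, or 32%, compare with 8.23% of 7312 genes called lower, and the 0 called higher with 20.7%. The median log2 ratio was -0.71 for the members and 0.18 for all genes. Relative to all genes, the higher share of all calls was 58.8% instead of 71.5%, and the called members were the same 8. Of all measured genes 15.3% were then called higher and 10.8% lower. For the summed members the log2 ratio was -1.03 (-1.11 to -0.95). In the same cells 17 of the 29 cycling genes were called lower. With single-cell means of CPM, Gpi1, Aldoa, Tpi1, Gapdh and Eno1 lost their calls, and without cycling cells all of the 8 but Gpi1 did. Without cycling cells the median of all genes was 0.57 instead of 0.18.

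Markers of other cells were looked at in these CD122+ cells as well. Over its 5 genes in the tables, none at 0, the gamma delta T cell list ran at 306 to 432 CPM in C-myc D/DCd4 and 31.8 to 387 CPM in C-myc fl/fl libraries, which overlapped. Its gene Trdc, the constant region of the delta chain, was called higher, at 212 against 9.24 CPM, and no other gene of it was called. Maf (61.4 against 103 CPM) and Blk (20.9 against 26.4 CPM) lay lower. Sox13 (36.3 against 25.1 CPM) and Cd163l1 (30.7 against 7.92 CPM) lay higher. The 8 double positive genes ran at 132 to 139.7 CPM against 10.6 to 59.9 CPM, with Cd8a and Arpp21 called higher and Rag2 at 0 in both. The 5 genes of regulatory T cells ran at 264 to 266 CPM against 36.9 to 185 CPM, with Tnfrsf18 alone called, as higher. Of the rest, Foxp3 was at 23.7 against 25.1 CPM, and Il2ra, Ctla4 and Ikzf4 lay higher without a call. The 6 NKT cell genes ran at 324 to 426 CPM against 106 to 337 CPM, with overlapping libraries, Slamf1 and Slamf6 called higher and Zbtb16 lower. Their part in the result was not tested.

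Ldha, whose promoter is printed above, was at 1392, 1242, 1339.8 and 934 CPM in C-myc fl/fl and 305 and 538 CPM in C-myc D/DCd4 libraries, a log2 ratio of -1.55 (-1.74 to -1.36), -1.73 relative to all genes. The lowest C-myc fl/fl library of Ldha lay above the higher C-myc D/DCd4 one, as its call requires. Pgam1 was at 581, 459, 460.1 and 255 CPM in C-myc fl/fl and 175 and 94.6 CPM in C-myc D/DCd4 libraries, 3.6-fold lower with a ratio of -1.85 (-2.20 to -1.52), -2.03 relative to all genes, and Aldoa at 576, 343, 415 and 191 CPM in C-myc fl/fl and 121 and 124 CPM in C-myc D/DCd4 libraries (-1.74, interval -2.10 to -1.40, -1.92 relative to all genes). These were the 3 with the largest of the called ratios. Pkm was at 1051, 855, 934 and 467 CPM in C-myc fl/fl and 337 and 358 CPM in C-myc D/DCd4 libraries (-1.34, interval -1.56 to -1.13, -1.53 relative to all genes). Tpi1 was at 267, 236, 257 and 138 CPM in C-myc fl/fl and 79.4 and 102 CPM in C-myc D/DCd4 libraries (-1.37, interval -1.80 to -0.96, -1.55 relative to all genes). Gapdh was at 701, 663, 627 and 392 CPM in C-myc fl/fl and 295 and 376 CPM in C-myc D/DCd4 libraries (-0.89, interval -1.12 to -0.66, -1.07 relative to all genes), and Gpi1 at 272, 232, 194 and 138 CPM in C-myc fl/fl and 105 and 124 CPM in C-myc D/DCd4 libraries (-0.92, interval -1.33 to -0.54, -1.11 relative to all genes). No call among the 8 was lost with any 1 of the 6 libraries left out. Leaving out a library cannot make the others overlap, so only the fold limit or the transcript minimum could have ended a call. After thinning each cell to 2000 transcripts, Gapdh, Eno1 and Pkm lost their calls. With mean transcripts per cell, not scaled, Gpi1 and Gapdh lost theirs. In each of the 8, as a call requires, the C-myc D/DCd4 libraries lay under all 4 of C-myc fl/fl, including library 4 with its 22 cells. Eno1, the 8th, did so on 37 and 17 transcripts (-1.02, interval -1.96 to -0.18, -1.20 relative to all genes). Its paralog Eno3 was at 143, 102, 198 and 31.8 CPM against 187 and 231 CPM, with overlapping libraries.

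Transporters, the kinases and the regulator held no called member in these cells. Slc16a1, the lactate transporter with CACGTG in its promoter, was at 46.1, 31.2, 22.6 and 10.6 CPM in C-myc fl/fl and 22.2 and 9.96 CPM in C-myc D/DCd4 libraries. Pdha1 was at 59.9, 111, 131 and 63.6 CPM in C-myc fl/fl and 60.3 and 82.1 CPM in C-myc D/DCd4 libraries and Slc2a3 at 27.7, 13.4, 13.5 and 0 CPM in C-myc fl/fl and 19.1 and 29.9 CPM in C-myc D/DCd4 libraries. Hif1a was at 32.3, 62.3, 108 and 31.8 CPM in C-myc fl/fl and 63.5 and 59.7 CPM in C-myc D/DCd4 libraries, with a ratio of -0.04 (-0.67 to 0.58). Ldhb was at 27.7, 22.3, 81.2 and 10.6 CPM in C-myc fl/fl and 54 and 69.7 CPM in C-myc D/DCd4 libraries, with overlapping libraries.

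In CD122- cells the same comparison had 3 called members: 2 of 23 members were called higher and 1 lower, against 22.2% and 1.58% of 6893 genes. The median log2 ratio was -0.05 for the members and 0.45 for all genes. The share of higher calls among all genes was 93.3%, and 59.8% relative to that shift. Aldoa, the member called lower, was at 315, 153, 254 and 171 CPM in C-myc fl/fl and 93.7 and 122 CPM in C-myc D/DCd4 libraries, a ratio of -1.02 (-1.41 to -0.65), -1.47 relative to all genes. Pgk1 was higher, at 19.4, 41.9, 35.6 and 42.7 CPM against 50.2 and 55.7 CPM (0.62, interval -0.10 to 1.38, 0.17 relative to all genes). That call rested on single libraries, since the ratio was 0.42 without C-myc fl/fl library 1 and 0.56 without C-myc D/DCd4 library 2, both under 1.5-fold. Ldhb was higher as well, at 38.8, 14, 44.5 and 18.3 CPM against 63.6 and 68.6 CPM (1.15, interval 0.44 to 1.93, 0.70 relative to all genes). Ldha overlapped, at 941, 405, 734 and 524 CPM against 569 and 628 CPM. Pkm was at 800.0, 349, 587 and 439 CPM against 358 and 412 CPM, and also overlapped. At the remaining steps Gpi1 was at 218, 116, 133 and 61 CPM against 141 and 137 CPM and Pdha1 at 121, 121, 125 and 54.9 CPM against 90.3 and 109 CPM. Of the cycling genes 10 were called higher in C-myc D/DCd4 and 0 lower.

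**Figure D4:**
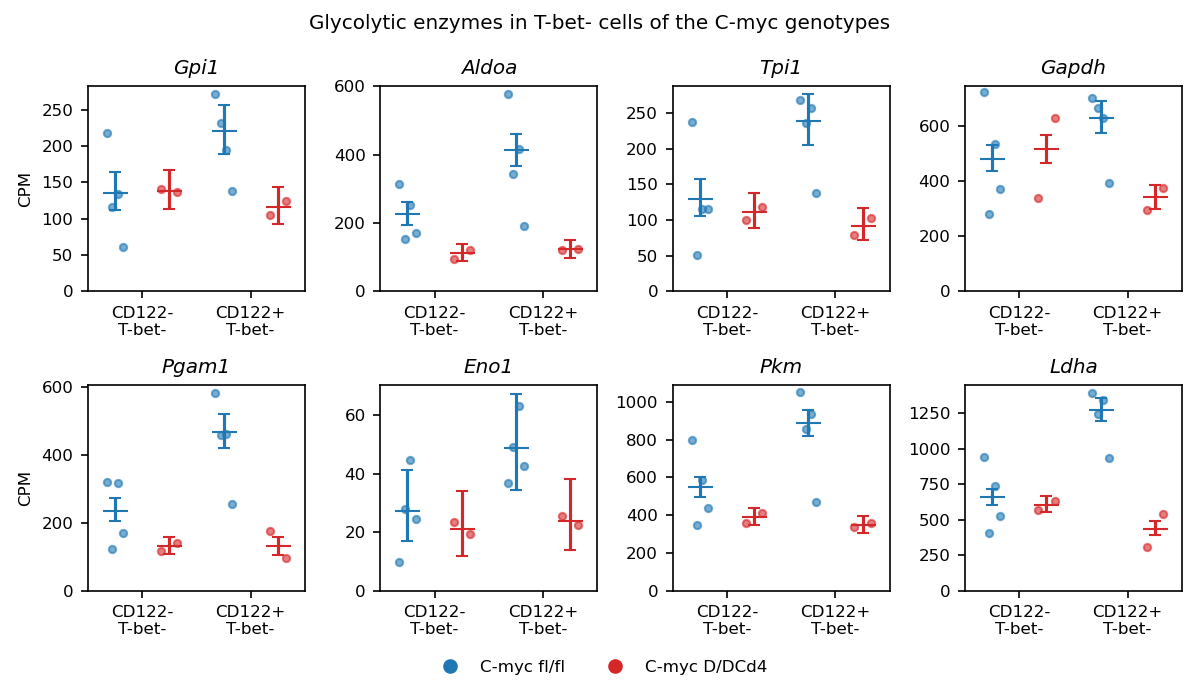
CPM of single members in CD122- and CD122+ cells of the C-myc fl/fl and C-myc D/DCd4 mice; horizontal lines are pooled values with 95% Poisson intervals and points libraries. Ldha, Pgam1 and the other genes called lower in CD122+ cells have every C-myc D/DCd4 library under every C-myc fl/fl library there, as a call requires.

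Within the C-myc D/DCd4 mouse, CD122+ against CD122- cells gave 4 of 23 members called higher and 2 lower, against 23.9% and 14.6% of 7425 genes, with medians of -0.01 for members and 0.13 for all genes. Eno3 was at 26.8 and 34.3 CPM in CD122- and 187 and 231 CPM in CD122+ libraries, 6.65-fold higher (2.73, interval 2.13 to 3.44, 2.61 relative to all genes). Pfkp followed, at 33.5 and 34.3 CPM against 92.1 and 119 CPM (1.64, interval 1.0 to 2.36, 1.52 relative to all genes). The glucose transporter Slc2a3 had 10 and 10.7 CPM against 19.1 and 29.9 CPM (1.22, interval -0.01 to 2.68, 1.09 relative to all genes), and Hif1a 46.8 and 36.4 CPM against 63.5 and 59.7 CPM (0.59, interval -0.10 to 1.31, 0.47 relative to all genes). Slc16a1 was lower (-1.36, interval -2.54 to -0.37), but at 0.35 after thinning each cell to 2000 transcripts, and Pgm2 was lower on 13 and 7 transcripts (-0.75, interval -2.36 to 0.63). Without CD122+ library 2, Slc2a3 had under 20 transcripts and Slc16a1 was at -0.79. Hif1a came under 1.5-fold without CD122+ library 1 (0.57) or CD122- library 2 (0.36), and Pgm2 had under 20 transcripts without any one of the 4 libraries. Of the cycling genes 24 were called lower in CD122+ cells of this mouse. The triose phosphates held no call: Gapdh was at 338 and 628 CPM against 295 and 376 CPM, and Aldoa at 93.7 and 122 CPM against 121 and 124 CPM. Ldha was at 569 and 628 CPM against 305 and 538 CPM, also without a call.

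The change from CD122- to CD122+ cells was set side by side in the 2 mice. For 19 of the 23 members measured in both, the log2 ratio was smaller in C-myc D/DCd4 than in C-myc fl/fl, and for 4 larger. The median difference was -0.65 for the members and -0.34 over 6402 genes. The latter is negative as well, so a smaller ratio was common among all genes, whose share is not given. Ldha had a ratio of 0.96 in C-myc fl/fl and -0.47 in C-myc D/DCd4. Tpi1 had 0.88 and -0.27, and Pgam1 0.99 and -0.01. The 4 larger were Eno3 (1.16 and 2.73), Slc2a3 (-0.01 and 1.22), Pfkp (1.01 and 1.64) and Hk1 (0.10 and 0.31). These differences were not tested.

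Because cycling genes moved with the members in several comparisons, cells were divided by the 29 genes of the cycling list, none of them a member. After thinning each cell to 2000 transcripts, those with at least 3 cycling transcripts are called cycling here; this is a range of a continuous count, with 169 of 1413 cells 1 transcript below the limit and 103 at it. The cycling share was 9.77%, 47.8%, 52.6% and 13.6% of TBGR cells from CD122- to high, 26.7%, 69.7%, 75% and 57.1% of C-myc fl/fl cells, and 32.8% and 29.2% of C-myc D/DCd4 cells. Without thinning the shares were 40.8%, 87.6%, 87.7% and 41.5%, then 44.2%, 80.3%, 87.1% and 67.9%, then 47.7% and 58.4%.

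The summed members were higher in cycling than in other cells in every library of every population, each with at least 5 cells of both classes. The gap was widest in CD122- cells of the younger mice, at 5942 CPM against 1446 CPM in C-myc fl/fl and 4057 CPM against 1218 CPM in C-myc D/DCd4, and narrower in TBGR, at 5583 CPM against 3774 CPM. In CD122+ cells it was 5139.6 CPM against 3931 CPM in TBGR, 5819 CPM against 2619 CPM in C-myc fl/fl and 3292 CPM against 2113 CPM in C-myc D/DCd4. Ldha had 1424 CPM in cycling and 242 CPM in other C-myc fl/fl CD122- cells, and Tpi1 214 CPM against 7.84 CPM in those of C-myc D/DCd4. Eno3 had no common order: in TBGR CD122+ cells it was at 107 CPM in cycling and 140.0 CPM in other cells, a log2 ratio of -0.39 (-0.83 to 0.05) and lower in cycling cells of both libraries, while in int cells it was at 78.4 CPM against 33.9 CPM, a ratio of 1.18 (0.42 to 2.08) and higher in cycling cells of both.

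Held within these classes, some of the comparisons kept their size and others did not. In CD122+ cells, C-myc D/DCd4 over C-myc fl/fl had a summed log2 ratio of -0.82 (-0.94 to -0.71) within cycling cells, where the libraries lay apart, and of -0.31 (-0.47 to -0.15) within other cells, where they overlapped. Within cycling cells the libraries of 7 of the 8 called genes lay apart, Gpi1 being the exception, with Pgam1 at -1.81 (-2.38 to -1.31), Aldoa at -1.28 (-1.80 to -0.82) and Ldha at -1.18 (-1.45 to -0.92). Within other cells those of Gpi1 alone did (-0.67, interval -1.38 to 0.08), while Ldha was at -0.82 (-1.17 to -0.45) with overlapping libraries. The 8 had been called because their libraries lay apart with all cells together. The share of all genes with libraries apart within either class is not given, so these counts are a description. With cycling cells left out the comparison had 2 called members of 15 measured, 1 higher and 1 lower. Of the 4314 genes measured then, 1070 were called higher and 36 lower, with a median log2 ratio of 0.57. In C-myc fl/fl, CD122+ over CD122- cells had a ratio of -0.03 (-0.11 to 0.06) within cycling cells and 0.86 (0.69 to 1.02) within other cells. In C-myc D/DCd4 the same ratios were -0.30 (-0.43 to -0.17) and 0.79 (0.64 to 0.96), opposite in sign, while the pooled one was -0.09. In TBGR they were -0.12 (-0.24 to 0.00) and 0.06 (-0.02 to 0.13). These ratios of summed members are not taken relative to all genes. Without cycling cells, the median log2 ratio of all genes from CD122- to CD122+ cells was 0.58 in C-myc fl/fl, 0.57 in C-myc D/DCd4 and 0.19 in TBGR. For high over int cells, TBGR gave -0.29 (-0.43 to -0.16) and -0.16 (-0.25 to -0.06) and C-myc fl/fl -0.40 (-0.48 to -0.32) and -0.42 (-0.59 to -0.24).

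**Figure D5:**
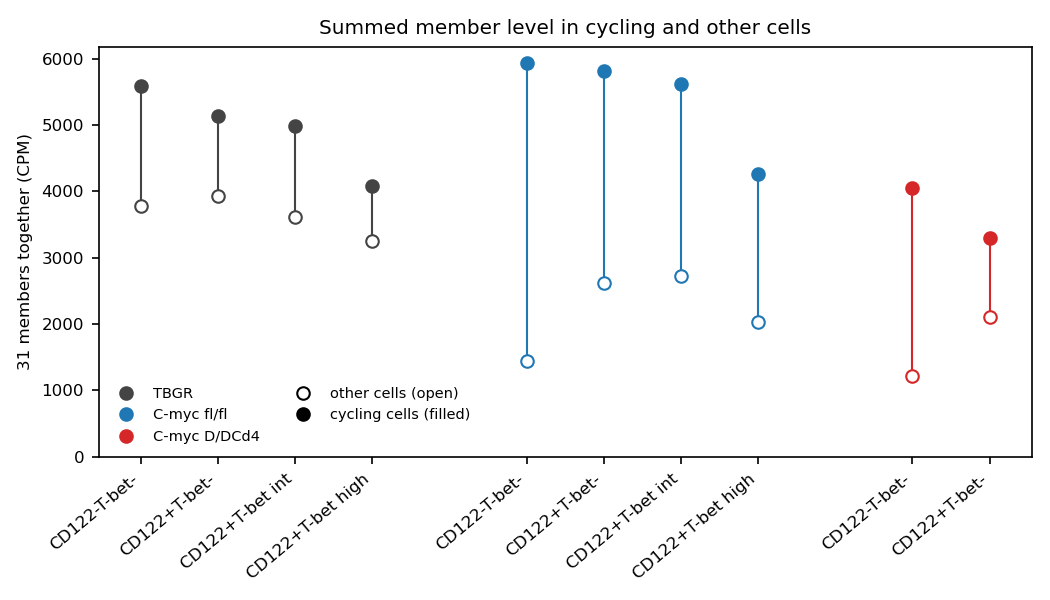
Summed CPM of the 31 members in cycling and other cells of each genotype and population; filled points are cycling cells and open points other cells, each pooled over libraries, and a line joins the pair. Cycling cells of the C-myc D/DCd4 CD122+ population sit at 3292 CPM and those of C-myc fl/fl at 5819 CPM.

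Genes beside the members in the pathway were counted from wider lists, first in 3 comparisons in which 26.7%, 14.1% and 20.7% of all measured genes were called higher and 7.67%, 22.3% and 8.23% lower. With so few measured genes in a list, its counts are a description. Of the 24 other glycolysis and lactate genes, 3 higher and 0 lower of 7 measured were called in TBGR CD122+ over CD122- cells, 0 higher and 3 lower of 7 measured in high over int cells and 2 higher and 0 lower of 5 measured in CD122+ cells of C-myc D/DCd4 over C-myc fl/fl. Gpd2, the mitochondrial glycerol phosphate dehydrogenase that carries reducing power from the cytosol, was higher in the first (0.63, interval 0.21 to 1.07), lower in the second (-0.60, interval -1.14 to -0.10) and higher in the third (0.85, interval 0.45 to 1.27). Emb, a chaperone of monocarboxylate transporters, was at 0 transcripts in high cells, where 3 transcripts equal 4.26 CPM, against 368 transcripts and 285 CPM in int cells, and was higher in the third (0.66, interval 0.32 to 1.0). Pgm1 (1.89, interval 0.32 to 4.48) and Gpd1l (1.0, interval 0.19 to 1.95) were higher in the first, and Adpgk, an ADP-dependent glucokinase, lower in the second (-0.89, interval -1.99 to 0.02). Of the 10 further pyruvate dehydrogenase genes, 2 higher and 0 lower of 6 measured, 0 higher and 3 lower of 5 measured and 0 higher and 1 lower of 5 measured were called in the same order. Pdp1, the phosphatase that opposes the Pdk kinases, had 1.13 (0.13 to 2.36) and then -1.68 (-4.26 to -0.11). Dlat, a core subunit, had 1.0 (0.28 to 1.83), and in the second comparison Pdhx had -0.97 (-2.37 to 0.13) and Dld -1.73 (-2.63 to -1.0). Pdhb, the partner subunit of Pdha1, was lower in C-myc D/DCd4 (-0.89, interval -1.47 to -0.36).

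Of the 8 pentose phosphate genes, which draw glucose 6-phosphate into NADPH and ribose, 3 higher and 0 lower of 7 measured, 2 higher and 1 lower of 8 measured and 0 higher and 1 lower of 7 measured were called in those 3 comparisons. Of all genes, 26.7%, 14.1% and 20.7% were called higher there and 7.67%, 22.3% and 8.23% lower. Tkt, the transketolase that links this branch to glycolysis, was higher in TBGR CD122+ cells (1.10, interval 0.77 to 1.45) and lower in C-myc D/DCd4 cells (-1.59, interval -2.15 to -1.09). Pgd (1.28, interval 0.73 to 1.89) and Pgls (1.0, interval 0.41 to 1.66) were higher in the first, and in the second Pgd was lower (-0.78, interval -1.39 to -0.22) and Rpia (0.59, interval -0.20 to 1.36) and H6pd (1.09, interval -0.12 to 2.34) higher. For the 12 hypoxia genes and partners of Hif1a the counts were 4 higher and 0 lower of 12 measured, 1 higher and 3 lower of 10 measured and 0 higher and 0 lower of 7 measured. Ddit4, an inhibitor of mTORC1 induced by hypoxia, had 0.87 (0.41 to 1.36) and -0.90 (-1.47 to -0.38) in the TBGR comparisons. Vhl (0.90, interval -0.19 to 2.23), Bnip3 (2.82, interval 1.12 to 6.24, on 2 and 26 transcripts) and Epas1 (1.74, interval 0.13 to 4.33) were higher in the first. In the second, Egln1 was higher (1.09, interval 0.55 to 1.63), and Egln3 (-2.73, interval -6.14 to -1.05, on 30 and 2 transcripts) and P4ha1 (-1.28, interval -3.13 to 0.03) lower.

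For the 11 genes of Myc, its partners and glucose-sensing factors the counts were 4 higher and 1 lower of 9 measured, 3 higher and 1 lower of 9 measured and 4 higher and 0 lower of 8 measured. In TBGR, Myc was higher in CD122+ cells (1.97, interval 1.16 to 2.99) and lower in high than in int cells (-0.62, interval -1.27 to -0.03), and Txnip, which restrains glucose uptake, was lower in the former, at -1.10 (-1.43 to -0.78), and higher in the latter, at 2.01 (1.70 to 2.34). The first comparison also had Mlxip (0.93, interval 0.20 to 1.76), Mxd1 (0.68, interval -0.17 to 1.64) and Mnt (0.86, interval 0.25 to 1.55) higher, and the second Mlxip (1.42, interval 0.81 to 2.05) and Mxd4 (1.59, interval 1.11 to 2.08). In C-myc D/DCd4 CD122+ cells Txnip (1.12, interval 0.57 to 1.72) and the Max partners Mxd4 (4.76, interval 2.76 to 10.67, on 1 and 38 transcripts), Mxi1 (0.88, interval -0.35 to 2.27) and Mnt (1.15, interval 0.25 to 2.16), known as antagonists of c-Myc, were higher.

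In the other 5 comparisons the glycolysis and lactate genes beside the members counted 0 higher and 0 lower of 7 measured in int over CD122+ cells of TBGR, 3 higher and 0 lower of 6 measured in CD122+ over CD122- and 0 higher and 1 lower of 7 measured in high over int cells of C-myc fl/fl, 2 higher and 0 lower of 5 measured in CD122+ over CD122- cells of C-myc D/DCd4 and 0 higher and 0 lower of 6 measured between the C-myc genotypes in CD122- cells. Of all measured genes, 9.9%, 23.7%, 4.7%, 23.9% and 22.2% were called higher and 15.1%, 3.9%, 10.6%, 14.6% and 1.58% lower, in that order. The one lower in C-myc fl/fl high over int cells was Emb. In the same order the pyruvate dehydrogenase genes counted 1 higher and 1 lower of 6 measured, 1 higher and 0 lower of 5 measured, 0 higher and 0 lower of 3 measured, 1 higher and 0 lower of 5 measured and 0 higher and 1 lower of 4 measured. The pentose phosphate genes counted 0 higher and 0 lower of 8 measured, 2 higher and 0 lower of 7 measured, 0 higher and 0 lower of 8 measured, 0 higher and 1 lower of 7 measured and 0 higher and 0 lower of 7 measured. The hypoxia genes counted 0 higher and 2 lower of 12 measured, 1 higher and 0 lower of 6 measured, 0 higher and 1 lower of 7 measured, 1 higher and 1 lower of 7 measured and 1 higher and 0 lower of 6 measured, and the genes of Myc and glucose sensing 0 higher and 2 lower of 9 measured, 1 higher and 0 lower of 6 measured, 1 higher and 0 lower of 7 measured, 2 higher and 0 lower of 8 measured and 1 higher and 0 lower of 8 measured. From int to high cells of C-myc fl/fl, Ddit4 was thus the hypoxia gene called lower and Txnip the glucose-sensing gene called higher, as both were in TBGR, and no pyruvate dehydrogenase gene was called.

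Per cell, the members gave a median of 7, 8, 8 and 6 transcripts of 2000 in TBGR cells from CD122- to high, 4, 9, 10 and 6 in C-myc fl/fl and 3 and 5 in C-myc D/DCd4 cells; without thinning the medians were 18, 28, 22 and 13, then 10, 23.5, 28.5 and 15.5, then 7 and 11. The medians of single C-myc fl/fl CD122+ libraries ran from 2 to 12.5, so that cells of this population were uneven between libraries. Some members share reads with near-identical copies. The 3′ end of Gapdh matched Gm3839 at 99.0% identity, and the copy held 48.9% of the transcripts of both (5772 and 6036); Eno1b held 28.8% of those of Eno1 and Eno1b (528 and 1303). With the copies added, 1 call was lost, that of Gapdh in C-myc D/DCd4 over C-myc fl/fl CD122+ cells, whose log2 ratio was then -0.82, and the Gapdh and Eno1 values are uncertain to that extent.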

How the data were processed

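Per the labels and the study's methods, the authors read single cells by CEL-Seq2, aligned reads with BWA 0.6.2-r126 to mouse GENCODE VM9 transcripts after bcl2fastq 2.17.1.14, discarded reads that map to several loci, merged loci overlapping by more than 75%, and counted tags of 6 bases in sense direction. They deposited estimated transcript counts, corrected for tag saturation. These were rounded, without mitochondrial and spike-in genes, and summed over cells with at least 2000 transcripts by library and population. CPM, exact Poisson and conditional binomial intervals (95%) and calls (at least 20 transcripts in both groups together, 1.5-fold, libraries apart) were computed with python 3.11.15, numpy 2.4.6, pandas 2.3.3 and scipy 1.17.1, and near-identical copies with blastn 2.17.0. The interval code was tested on simulated data. Named genes were those called, and, at steps without a call, the member with most transcripts. The members and lists were chosen with earlier results of these data known. Alternatives covered scaling, cell and gene filters, cycling cells, rounding, copies and single libraries. Of each table's 192 barcodes, 96 belonged to no cell of it.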

Additional observations from a re-analysis of the deposited data

Results flagged for a closer look

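For 3 members the change ran in opposite directions from CD122- to CD122+ cells in the C-myc genotypes, with every C-myc fl/fl library against every C-myc D/DCd4 library: the log2 ratio in C-myc D/DCd4 less that in C-myc fl/fl was -1.43 for Ldha, -0.95 for Gpi1 and -3.06 for Pgm2, whose identity is uncertain. Eno1 moved in opposite directions in TBGR and C-myc fl/fl cells over the same step, with a difference of -1.24. None of these differences was tested, and the share of all genes with opposite changes is not given. Of the 3, Ldha (-0.47) and Gpi1 (-0.26) were not called within C-myc D/DCd4. Barcodes that belong to no cell of a library held 218 member transcripts, 0.114 per barcode against 25.1 per passing cell. In 19 sets of 4 within-library ratios no library stood apart from the others by the rule applied. Single libraries still decided some calls in C-myc fl/fl cells, such as that of Mpc1, at 0.28 without library 3.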

How the results depend on the processing

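The 64 calls of members were recomputed under 13 alternatives, of which the addition of near-identical copies, and all alternatives for the count of opposite changes, were chosen after seeing the data. All 64 remained without rounding and with a minimum of 1 transcript per gene, 63 without ribosomal protein genes, 63 with copies, 61 and 59 with at least 1000 and 3000 transcripts per cell, 51 unscaled, 48 each relative to all genes, with TMM scaling and with the mean of single-cell CPM, 36 with at least 100 transcripts per gene, 27 without cycling cells and 26 after thinning to 2000 transcripts. The cause of the losses was not tested. Calls lost on thinning included those of members with many transcripts, such as Gapdh, Ldha and Pgam1 in TBGR high over int cells. In the counts of called members that follow, those called need not be the ones called before. In the order CD122+ over CD122-, int over CD122+ and high over int, the called TBGR members (9, 5 and 14) became 16 unscaled for CD122+ over CD122- and 5, 3 and 8 at 100 transcripts per gene, and high over int became 6 both thinned and without cycling cells. The TBGR medians moved to 0.67 (CD122+ over CD122-) and -1.16 (high over int) unscaled, to -0.22 (int over CD122+) and -0.26 (high over int) thinned, and to -0.30 (high over int) without cycling cells. In the same order, those of all genes were 0.75 and -0.74 unscaled, 0.02 and -0.11 thinned, and -0.02 without cycling cells. Unscaled, 5134 of 9262 genes were called higher and 277 lower in CD122+ over CD122- cells. In C-myc fl/fl, the 12 called in CD122+ over CD122- cells became 3 relative to all genes, 3 with TMM, 4 thinned and 6 unscaled, at 100 transcripts per gene or without cycling cells, with medians of 0.28 relative and 0.33 with TMM. The median of all genes with TMM was 0.06. The 7 of high over int became 11 unscaled, 4 at 100 transcripts per gene and 3 thinned or without cycling cells. Unscaled, 1151 of 6908 genes were called lower there and 180 higher. In C-myc D/DCd4 the 6 became 3 thinned and 2 at 100 transcripts per gene, and the median moved from -0.01 to -0.20 unscaled, -0.14 with TMM, 0.16 with single-cell means, 0.21 thinned, -0.21 at 100 transcripts per gene and 0.60 without cycling cells. Over all genes these medians were -0.07, -0.01, 0.22, 0.25, 0.05 and 0.57 in the same order. Between the C-myc genotypes, the 3 calls of CD122- cells became 1 unscaled, 1 at 100 transcripts per gene, 5 with TMM and 5 with single-cell means, with medians of -0.50 relative and -0.65 thinned. Thinned, the median of all genes was 0.44. In CD122+ cells, where 8 were called, 5 were called with single-cell means, 3 of them among the 8 (Aldoa, Tpi1, Gpi1, Gapdh and Eno1 were lost), and 2 without cycling cells, of which Gpi1 was among the 8, with medians of -1.13 at 100 transcripts per gene and -0.19 without cycling cells. Over all genes the medians at those settings were 0.06 and 0.57. The 3 members with opposite changes became 1 with single-cell means and 0 thinned or without cycling cells. Single calls that changed sign were Pfkm (int over CD122+, TBGR, 0.41, on 3 transcripts in each group), Tpi1 (high over int, TBGR, 0.12) and Pdk3 (high over int, C-myc fl/fl, 0.68, on 3 and 7), all without cycling cells, and Slc16a1 in C-myc D/DCd4 (0.35, thinned). Leaving out 1 library at a time gave 3 to 6 called members in CD122- and 9 to 13 in CD122+ cells between the C-myc genotypes, with 6 without C-myc fl/fl library 3 and 13 without C-myc D/DCd4 CD122+ library 1, and a C-myc D/DCd4 median between -0.21 and 0.11, at -0.21 without CD122+ library 2. Leaving a library out can only relax the condition that the libraries of the groups lie apart, so these counts cannot fall through overlap. Populations of C-myc fl/fl were compared within their shared libraries. No paired analysis was possible for the other comparisons because their library numbers are given in accession order and their groups share no library.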
